A study of Mus musculus with 12 samples.

Results

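The 10 genes described here, Pecam1, Cdh5, Kdr, Flt1, Tek, Emcn, Ehd3, Plvap, Vwf and Eng, encode proteins that mark and run the endothelium, the cell layer that lines blood vessels. They were taken by gene name from a table of 22053 rows, in which each of the 10 has 1 row. All 10 passed the filter of at least 1 FPKM in at least 4 mice and were among the 13148 genes tested. FPKM is a count of sequenced fragments divided by the length of the transcript and by the depth of the library, so levels of different genes can be set side by side.

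RNA was sequenced from whole kidney tissue of 12 wild-type C57BL/6 mice, 4 per group and 1 library per mouse. Control mice ate the diet without adenine over the same 8 weeks, from 8 to 16 weeks of age, and were injected i.p. every week with PBS. CKD mice had chronic kidney disease induced by 0.2% adenine in the diet over 8 weeks, from 8 to 16 weeks of age, with the same PBS injections. CKD+Fe mice ate the adenine diet for the same time and were given 0.5 g/kg iron dextran i.p. every week. The adenine model damages the tubules through a dietary metabolite, and whole tissue holds every kidney cell type. The labels name no batch, and no gene was deleted or overexpressed in any group.

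Kidney endothelium is not of 1 kind. Fenestrated capillaries line the glomeruli and surround the tubules, vasa recta descend into the medulla, and larger arteries and veins carry continuous endothelium. Podocytes and tubule cells secrete VEGF-A, which signals through KDR (VEGFR2), while FLT1 (VEGFR1) binds the same ligand with high affinity and signals weakly. TEK (TIE2) is the receptor for angiopoietins, and ENG (endoglin) is a coreceptor for BMP and TGF-β family ligands. PECAM1 and CDH5 (VE-cadherin) hold endothelial cells together. PLVAP forms the diaphragms of fenestrae and caveolae, EMCN is a sialomucin of capillaries and veins, EHD3 is an endocytic protein enriched in glomerular endothelium, and VWF is the clotting factor stored in endothelial Weibel-Palade bodies, most of all in larger vessels.

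The VEGF receptor genes Kdr and Flt1 are shown first by the sequence upstream of their starts, since they share a ligand and a chromosome and Kdr was the gene of the set with the clearest difference. On GRCm38, Kdr (ENSMUSG00000062960) lies on the minus strand of chromosome 5 from 75932827 to 75978458, and Flt1 (ENSMUSG00000029648) on the same strand from 147561604 to 147726011. The 250 bases before each RefSeq start (GRCm38.p6) are given on the coding strand, for Kdr chr5:75978456-75978705 and for Flt1 chr5:147726012-147726261. Capitals mark AGGAAG or CGGAAG on either strand, 6-letter forms of the ETS motif, which factors active in endothelium can bind.
Kdr upstream: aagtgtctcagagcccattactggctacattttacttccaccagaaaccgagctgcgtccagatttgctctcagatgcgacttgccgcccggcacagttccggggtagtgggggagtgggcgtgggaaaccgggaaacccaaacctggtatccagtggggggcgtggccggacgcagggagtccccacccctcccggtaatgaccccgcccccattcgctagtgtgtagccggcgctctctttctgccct
Flt1 upstream: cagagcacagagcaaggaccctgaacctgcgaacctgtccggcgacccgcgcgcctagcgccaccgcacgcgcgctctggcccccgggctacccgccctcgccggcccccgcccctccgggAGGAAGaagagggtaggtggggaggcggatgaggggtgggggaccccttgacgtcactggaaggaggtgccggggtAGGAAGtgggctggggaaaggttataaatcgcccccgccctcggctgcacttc
The Kdr stretch held neither form and the Flt1 stretch held 2 matches. RefSeq promoters were matched for 6 of the 10 genes, namely Ehd3, Emcn, Eng, Flt1, Kdr and Tek, and Pecam1, Cdh5, Plvap and Vwf had no entry. Emcn and Eng held 2 matches each, and Tek and Ehd3 none. At least 1 match was therefore found in 3 of 6, beside 10527 of 27025 promoters of all genes (39.0%), and a match is only a description of these letters.

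To find which endothelial genes differed in CKD kidneys, the mice of each group were compared by limma on log2(FPKM + 1), with p-values adjusted over all genes tested (Benjamini-Hochberg). In CKD against control, Kdr was lower and Vwf was higher, and the other 8 genes did not pass the adjusted p threshold of 0.05. The background in this comparison was 54.6% of all genes called higher and 13.3% called lower. The median log2 fold change of all genes was 0.50 as deposited and 0.01 after median-of-ratios rescaling. This rescaling divides each mouse by its median ratio, which brings the median of all genes close to no change by design. The value after it therefore does not show whether the upward median as deposited came from scaling or from the tissue, and its cause was not tested. Calls after rescaling are relative to the typical gene. The median of the 10 genes was -0.16 as deposited and -0.71 after rescaling, and 8 of the 10 were negative as deposited against 9 of 10 after rescaling. After rescaling, 8 of the 10 were called lower and 0 higher, beside 29.3% of all genes called lower and 28.8% called higher. In bulk tissue, fewer endothelial cells and less RNA of a gene per cell cannot be told apart.

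Kdr, the main signaling receptor for VEGF-A, was at 9.60, 8.91, 10.8 and 12.9 FPKM in control mice and at 6.52, 5.54, 5.91 and 6.90 FPKM in CKD mice. No CKD mouse reached the lowest control mouse, and the CKD values lay close together. The group means were 10.6 ± 1.77 FPKM in controls and 6.22 ± 0.61 FPKM in CKD (SD, n = 4 each), a ratio of 0.588. On the log2 scale of FPKM + 1 the change was -0.67 (SE 0.19, limma adjusted p = 0.00714), and an exact two-sided permutation test gave p = 0.0286, the smallest value 4 against 4 allows. Of all genes with a value in every mouse, 10.4% were lower in CKD without overlap and 44.6% were higher without overlap. Kdr was called lower when any single mouse was left out, with log2 fold changes from -0.74 to -0.58, and after median-of-ratios rescaling its change was -1.19 (adjusted p = 0.000123).

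Flt1, the other VEGF receptor, was at 8.75, 7.45, 11.0 and 8.96 FPKM in controls and at 10.3, 7.33, 6.73 and 8.83 FPKM in CKD mice. These ranges overlapped nearly in full, with a log2 fold change of -0.12 (SE 0.16, limma adjusted p = 0.538). After rescaling, Flt1 was called lower at -0.64 (adjusted p = 0.00305). Within each mouse, a ratio of 2 genes is free of the scaling between mice. The ratio of Kdr to Flt1 was 1.10, 1.20, 0.981 and 1.44 in controls and 0.636, 0.756, 0.879 and 0.782 in CKD mice, so that every CKD mouse lay below every control mouse. The Kdr values enter this ratio, so it is no separate support. How many other pairs of genes lie apart in this way was not counted.

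**Figure D1:**
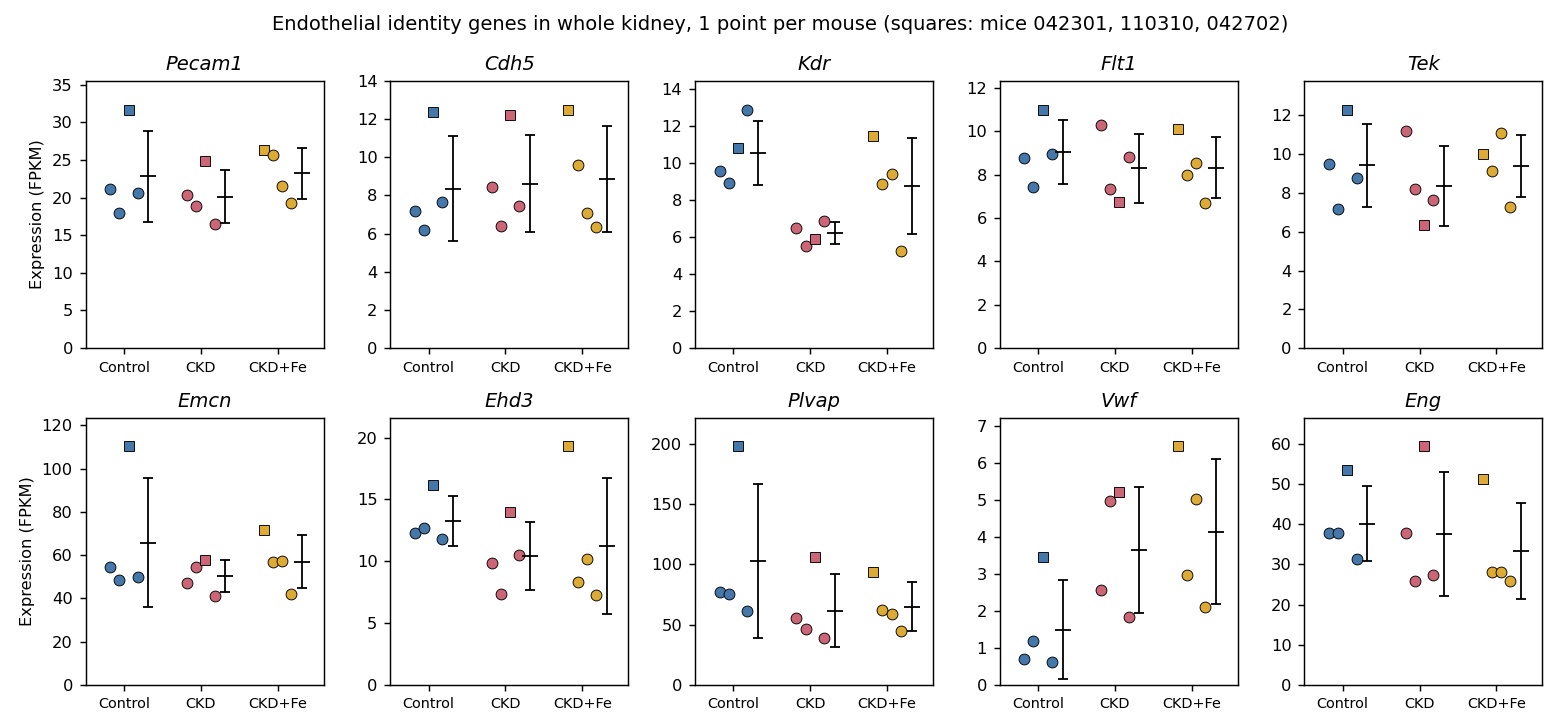
Expression of the 10 endothelial genes in FPKM (vertical axes, from 0) in control, CKD and CKD+Fe kidneys, with 1 point per mouse and the group mean ± SD (n = 4) as a black bar. Kdr points of CKD mice lie between 5.54 and 6.90 FPKM, below all control mice. Squares mark mice 042301, 110310 and 042702, which are the highest of their groups for Plvap, Cdh5, Eng, Emcn, Ehd3, Pecam1 and Vwf.

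Tek and Eng, receptors of the angiopoietin and BMP or TGF-β pathways, did not pass the test as deposited. Tek (ENSMUSG00000006386) was at 9.49, 7.16, 12.3 and 8.76 FPKM in controls and at 11.2, 8.20, 6.33 and 7.62 FPKM in CKD mice. Eng (ENSMUSG00000026814) was at 37.7, 37.9, 53.4 and 31.4 FPKM in controls and at 37.9, 25.9, 59.4 and 27.4 FPKM in CKD mice. Both pairs of ranges overlapped, with log2 fold changes of -0.16 for Tek (SE 0.19, limma adjusted p = 0.459) and -0.14 for Eng (SE 0.27, limma adjusted p = 0.655), and both were called lower after median-of-ratios rescaling at -0.68 and -0.70.

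The junction genes Pecam1 and Cdh5 did not pass the test as deposited. Pecam1 (ENSMUSG00000020717) was at 21.1, 18, 31.7 and 20.6 FPKM in controls and at 20.3, 18.9, 24.9 and 16.5 FPKM in CKD mice. Cdh5 (ENSMUSG00000031871) was at 7.21, 6.20, 12.4 and 7.65 FPKM in controls and at 8.43, 6.38, 12.2 and 7.46 FPKM in CKD mice. The Cdh5 groups covered almost the same range, with a log2 fold change of 0.05 (SE 0.24, limma adjusted p = 0.871) that turned to -0.47 after median-of-ratios rescaling (adjusted p = 0.114), to -0.61 after quantile normalization and to -0.20 when centred on other endothelial genes. Pecam1 changed by -0.16 (SE 0.18, limma adjusted p = 0.453) and was called lower after median-of-ratios rescaling at -0.71 (adjusted p = 0.00453).

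The capillary genes Plvap, Emcn and Ehd3 were all lower on average in CKD, and none passed the test as deposited. Plvap (ENSMUSG00000034845, chromosome 8, 71497765 to 71511752, minus strand) was at 77.0, 75.5, 198.1 and 61.1 FPKM in controls and at 55.4, 46.3, 106.2 and 38.6 FPKM in CKD mice. In each group 1 mouse stood far above the other 3, control mouse 042301 and CKD mouse 110310. The log2 fold change of Plvap was -0.68 (SE 0.37, limma adjusted p = 0.116; exact permutation p = 0.257). Without CKD mouse 110310 it was -0.97 and was called lower (adjusted p = 0.0243), and without control mouse 042301 it was -0.31 (adjusted p = 0.38).

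Emcn (ENSMUSG00000054690) was at 54.6, 48.4, 110.3 and 49.9 FPKM in controls and at 47.2, 54.6, 57.9 and 41.2 FPKM in CKD mice. Apart from mouse 042301 the groups lay within the same range, and the log2 fold change was -0.31 (SE 0.24, limma adjusted p = 0.271). Ehd3 (ENSMUSG00000024065) was at 12.3, 12.7, 16.2 and 11.8 FPKM in controls and at 9.84, 7.32, 14.0 and 10.5 FPKM in CKD mice. Of the CKD mice only 110310 reached the control range of Ehd3, and the log2 fold change was -0.34 (SE 0.25, limma adjusted p = 0.247). Median-of-ratios rescaling gave -1.25 for Plvap, -0.87 for Emcn and -0.87 for Ehd3, all called lower.

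Vwf (ENSMUSG00000001930, chromosome 6, 125546774 to 125686679, plus strand) was the lowest gene of the set in every group and the only one called higher. It was at 0.703, 1.18, 3.46 and 0.614 FPKM in controls and at 2.57, 4.96, 5.20 and 1.83 FPKM in CKD mice. Control mouse 042301 lay above 2 of the CKD mice, and the other 3 controls lay below all of them. The means were 1.49 ± 1.34 and 3.64 ± 1.69 FPKM (SD, n = 4 each), with a log2 fold change of 0.95 (SE 0.36, limma adjusted p = 0.0318) and an exact permutation p = 0.0857. The call was lost without control mouse 012811, 012822 or 042310 or CKD mouse 022301 or 110310, with adjusted p from 0.0626 to 0.0919, and also without a filter on low values (adjusted p = 0.0572). After median-of-ratios rescaling Vwf changed by 0.59 (adjusted p = 0.175), and after quantile normalization by 0.13 (adjusted p = 0.784).

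Markers of other cells that hold VWF or surround these vessels were counted in the same comparison. Of all genes, 54.6% were called higher there and 13.3% lower. Of the platelet markers, 3 of 4 tested were called higher in CKD (Pf4, Ppbp and Gp1bb), and Gp1ba, Gp9 and Gp6 were too low to test. After median-of-ratios rescaling 2 of the 4 were higher and 1 lower, where 28.8% of all genes were higher and 29.3% lower. The summed level of the 7 listed was 7.61 to 19.1 FPKM in controls and 21.8 to 53.7 FPKM in CKD mice. Itga2b, the platelet integrin αIIb, changed by -0.55 (adjusted p = 0.0583). All 11 macrophage markers were called higher, with sums of 126.5 to 260.3 FPKM in controls and 1842.6 to 3850.2 FPKM in CKD mice, and 11 of 12 proximal tubule markers were called lower. The part of these cells in the values of Vwf and the other endothelial genes was not tested.

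The 3 mice that stood apart, control 042301, CKD 110310 and CKD+Fe 042702, were left out together to see which calls rested on them. Vwf was then called higher at 1.11 (adjusted p = 0.00534), and Kdr at -0.64 (adjusted p = 0.0145), Ehd3 at -0.39 (adjusted p = 0.0369) and Plvap at -0.60 (adjusted p = 0.00639) were called lower, while 59.4% of all genes were called higher and 15.7% lower. Under the same omission Flt1 and Tek turned to 0.06 and 0.07, not called. The 3 mice held the highest values of their groups for Plvap, Cdh5, Eng, Emcn, Ehd3, Pecam1 and Vwf, so leaving them out narrowed the spread. The SE went from 0.37 to 0.16 for Plvap and from 0.25 to 0.15 for Ehd3, and calls gained this way are no separate support. Papilla and urothelium markers, whose level depends on how much papilla a piece of tissue holds, summed to 147.4 FPKM in mouse 042301 and to 1.89, 55.3 and 2.94 FPKM in the other controls, but to only 6.64 FPKM in mouse 110310, the lowest of the CKD mice. The part of tissue sampling in these values was not tested.

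To set the 10 genes against other endothelial genes rather than against the whole kidney, each mouse was also centred on its mean over 25 of them. These 25 had a median log2 fold change of 0.17 in CKD, and Fli1 among them (1.21) is also expressed in blood cells. A rise of this reference lowers every gene set against it, and the median of the 10 went from -0.16 to -0.41. The part of other cells in the reference was not tested. On that scale 5 of the 10 were called lower in CKD (Kdr, Plvap, Ehd3, Emcn and Pecam1) and 1 higher (Vwf), where 15.5% of all genes were called lower and 29.4% higher. The changes were -0.92 for Kdr (adjusted p = 0.00398), -0.93 for Plvap (0.00641), -0.59 for Ehd3 (0.0399), -0.56 for Emcn (0.0101), -0.41 for Pecam1 (0.0338) and 0.70 for Vwf (0.0456). Kdr was the only gene of the set called in the same direction on this scale, as deposited, after median-of-ratios rescaling and after quantile normalization.

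**Figure D2:**
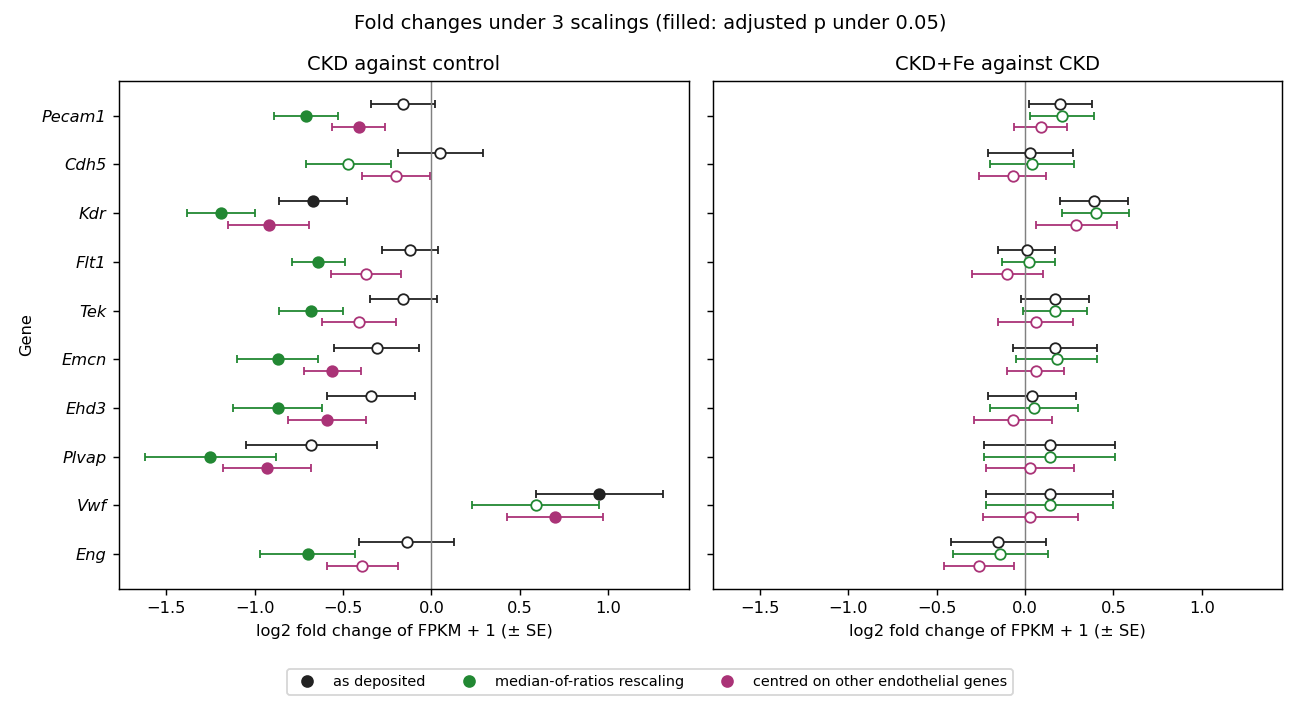
Log2 fold changes of FPKM + 1 (horizontal axes, ± SE) of the 10 endothelial genes in CKD against control (left) and CKD+Fe against CKD (right), as deposited (black), after median-of-ratios rescaling (green) and centred on other endothelial genes (purple), with filled points at adjusted p under 0.05. Kdr lies below 0 and is filled on all 3 scales on the left, Vwf is filled on 2 of them, and no point is filled on the right.

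Ratios to Cdh5 were also taken within each mouse, and for every gene their ranges overlapped between control and CKD mice. The ratio of Vwf to Cdh5 was 0.0803 to 0.28 in controls and 0.245 to 0.777 in CKD mice. The ratio of Plvap to Cdh5 was 7.99 to 16 in controls and 5.18 to 8.7 in CKD mice, and that of Ehd3 to Cdh5 was 1.31 to 2.04 in controls and 1.15 to 1.4 in CKD mice. Each of these pairs of ranges overlapped, by 1 mouse of each group. The ratio of Kdr to Cdh5 was 0.876 to 1.69 in controls and 0.485 to 0.925 in CKD mice, and the single control mouse within the CKD range was 042301. Emcn to Cdh5 was 6.52 to 8.92 in controls and 4.74 to 8.56 in CKD mice, and Pecam1 to Cdh5 was 2.57 to 2.93 and 2.04 to 2.97. The ratios of Flt1, Tek and Eng to Cdh5 overlapped as well.

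**Figure D3:**
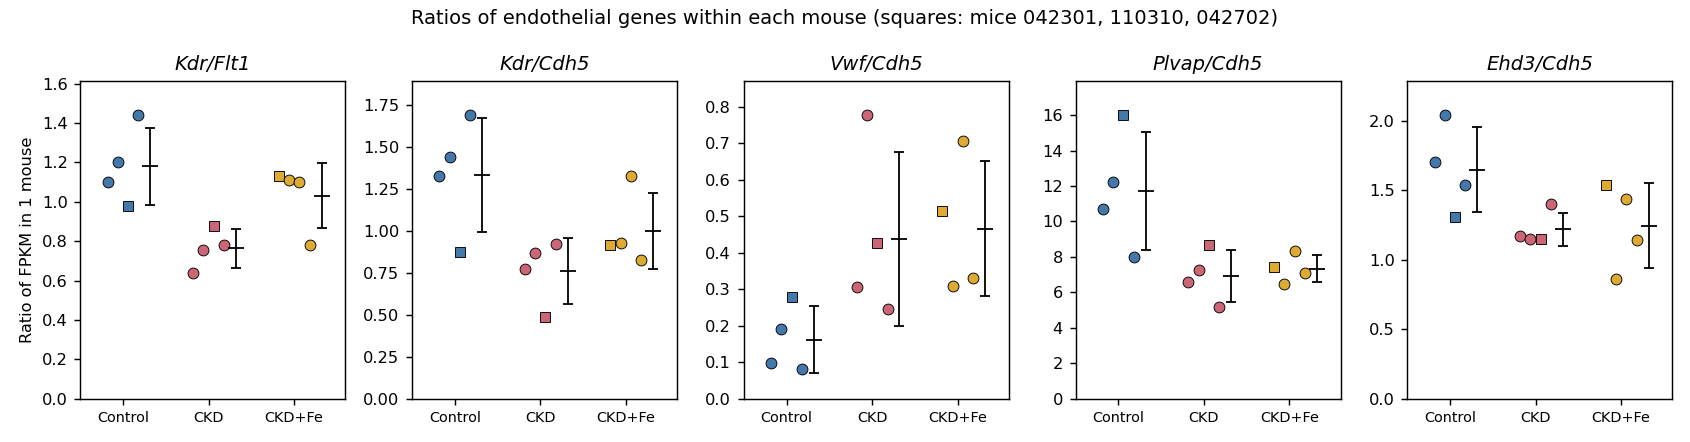
Ratios of FPKM between pairs of endothelial genes within each mouse (vertical axes, no unit, from 0), with 1 point per mouse, squares for mice 042301, 110310 and 042702, and the group mean ± SD (n = 4). The Kdr to Flt1 ratio of CKD mice runs from 0.636 to 0.879 and that of controls from 0.981 to 1.44, with 3 CKD+Fe mice between 1.10 and 1.13 and the fourth at 0.783.

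The next comparison asked whether iron dextran changed these genes in CKD kidneys. None of the 10 was called in CKD+Fe against CKD by limma, and 0 of the 10 had an unadjusted p under 0.05 as deposited, while 1, Kdr, did after quantile normalization. Over all genes 0.00761% were called higher, which is the single gene Fabp1, named because it is alone and after its value was seen, and 0.0% lower. The log2 fold changes of the 10 ran from -0.15 for Eng to 0.39 for Kdr with a median of 0.14, and 9 of the 10 were positive, where the median of all genes was -0.001. With SEs of 0.16 to 0.37 these values leave room for changes in either direction in most of the genes, and adjusted p ran from 0.843 to 0.999.

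Kdr in CKD+Fe mice was at 11.5, 8.90, 9.42 and 5.24 FPKM, a mean of 8.76 ± 2.59 FPKM (SD, n = 4) against 6.22 ± 0.61 FPKM in CKD. In 3 of the 4 CKD+Fe mice Kdr lay above all CKD mice, and mouse 122320 lay below all of them. The log2 fold change was 0.39 (SE 0.19, limma adjusted p = 0.843), with an exact permutation p = 0.143. Without mouse 122320 it was 0.59 (adjusted p = 0.671) and without mouse 042702 it was 0.26 (adjusted p = 0.679). Groups without overlap were found upward in 1.35% and downward in 1.08% of all genes between CKD+Fe and CKD, and Kdr was not among them.

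Most values of the other genes in CKD+Fe mice lay within or near the CKD range. In mouse 042702, Emcn, Ehd3 and Vwf lay above the highest CKD values, which were 57.9, 14.0 and 5.2 FPKM. Flt1 was at 10.1, 7.98, 8.55 and 6.69 FPKM (log2 fold change 0.01, SE 0.16), and Plvap at 93.4, 62.3, 59.0 and 45.0 FPKM (0.14, SE 0.37). Vwf was at 6.44, 2.97, 5.01 and 2.11 FPKM (0.14, SE 0.36), Eng at 51.2, 28.2, 28.1 and 25.8 FPKM (-0.15, SE 0.27), and Pecam1 at 26.3, 25.7, 21.6 and 19.3 FPKM (0.20, SE 0.18). Mouse 042702 was the highest of its group in each of these 5 genes. Cdh5 was at 12.5, 9.60, 7.09 and 6.36 FPKM (0.03, SE 0.24), Tek between 7.30 and 11.1 FPKM (0.17, SE 0.19) and Emcn at 71.7, 56.9, 57.3 and 42.2 FPKM (0.17, SE 0.24). Ehd3 was at 19.3 FPKM in mouse 042702 and 7.26 to 10.2 FPKM in the other 3, and the podocyte markers, whose level depends on the glomeruli in the tissue, summed to 437.5 FPKM in mouse 042702 and to 115.4 to 276.9 FPKM in the other CKD+Fe mice. The part of glomerular sampling in Ehd3 was not tested.

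Against control, CKD+Fe kidneys gave values of the same kind. Both comparisons share the control mice, so their values are set side by side without a test of likeness. Vwf was the only gene called, higher by 1.09 (SE 0.36, limma adjusted p = 0.017), beside 0.95 in CKD, and the background was 54.4% of genes higher and 11.0% lower. The call was lost without control mouse 012811 (adjusted p = 0.0524) or 042310 (0.0521) or CKD+Fe mouse 042702 (0.0573). Kdr was at -0.28 (SE 0.19, limma adjusted p = 0.217), beside -0.67 in CKD, and Plvap at -0.54 beside -0.68. After median-of-ratios rescaling 8 of the 10 were called lower and 0 higher, where the background was 27.5% lower and 27.7% higher. Centred on other endothelial genes, 5 were called lower (Kdr, Plvap, Ehd3, Emcn and Eng) and Vwf higher, where 15.7% of all genes were lower and 21.4% higher.

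The order of levels was alike in the 3 groups at its top and bottom. Plvap, Emcn, Eng, Pecam1 and Ehd3 were the first 5 by mean in every group and Vwf the last. In controls only Pecam1 over Ehd3 and Cdh5 over Vwf were neighbours whose ranges did not overlap. In CKD these were Eng over Pecam1, Pecam1 over Ehd3 and Kdr over Vwf, and in CKD+Fe only Flt1 over Vwf. Kdr ranked sixth in controls, ninth in CKD and eighth in CKD+Fe, among genes whose ranges overlapped. Estimated from the steps between low FPKM values, 130 to 1320 reads lay behind Vwf in a mouse and 550 to 9050 behind the other genes. In each control mouse Vwf had the fewest reads of the 10, 130 to 740.

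Over the 12 mice, the gene whose log2 values were most like the mean of the 10 standardized genes was Mmrn2, which encodes an endothelial matrix protein (Pearson r = 0.913), followed by Gltp (0.903), Pde6d (0.881), Syp (0.881) and 1810037I17Rik (0.88). These correlations rest on 12 libraries that share depth and groups and are given as a description. Among the 10 genes, Emcn followed that mean most closely (r = 0.913) and Vwf least (r = 0.4). After the group means were subtracted, the r of Vwf was 0.787 and that of Kdr 0.61, and the closest other genes were Fut4 (0.96), Tmem184b (0.952), Ndnl2 (0.95), Capn1 (0.939) and Schip1 (0.931).

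Other endothelial genes and the ligands and partners of the 10 place these values. Of 25 other pan-endothelial genes tested, 6 were called higher in CKD and 0 lower, a share higher of 24.0% against 54.6% of all genes, with a median log2 fold change of 0.17 against 0.50. After median-of-ratios rescaling 2 were higher and 6 lower. These shares, 8.0% and 24.0%, were both under those of all genes, 28.8% and 29.3%. The largest rises as deposited were in Ecscr (1.48), Fli1, an ETS factor also expressed in blood cells (1.21), and Cd34 (0.68). The summed level of the 26 listed genes was 211.3 to 410.7 FPKM in controls, 243.1 to 434.3 FPKM in CKD and 323.2 to 445.2 FPKM in CKD+Fe mice, with the 10 genes at 213.6 to 459.7, 166.9 to 298.7 and 167.3 to 312.4 FPKM.

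In the VEGF, angiopoietin and endoglin pathways, 14 of 24 genes tested were called higher in CKD and 0 lower, with a median of 0.57. This share, 58.3%, was near the 54.6% of all genes, and the median near their 0.50. After rescaling 7 were higher and 1 lower, with a median of 0.24. The share higher, 29.2%, was again near that of all genes, 28.8%, and 4.17% were lower beside 29.3% of all genes. The largest rises were in the TGF-β receptor Tgfbr1 (1.91), the ligand Tgfb1 (1.69) and the VEGF coreceptor Nrp2 (1.46). Vegfa itself, the ligand of Kdr and Flt1, was at 54.2 ± 7.97 FPKM in controls and 65.6 ± 21.5 FPKM in CKD (SD, n = 4 each), a log2 fold change of 0.21 (limma adjusted p = 0.464). Several of these genes are also expressed by stromal and blood cells.

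Markers of vessel segments were counted by list, though tubule, stromal or blood cells can also express several of them, and their part was not tested. Of 11 venous, capillary and vasa recta genes, 5 were called lower and 2 higher, with a median of -0.26. These shares were 45.5% lower and 18.2% higher, against 13.3% and 54.6% of all genes. The largest falls were in the growth factor binding genes Igfbp3 (-1.71) and Igfbp5 (-1.26) and in Cd300lg, a glycoprotein of capillary endothelium (-0.84). Ephb4 (0.82) and Nr2f2 (0.70), which specify veins, rose. Rescaling left 6 lower and 0 higher (54.5% and 0.0%), beside 29.3% and 28.8% of all genes. Of 11 glomerular and arterial genes tested, 5 were called higher and 0 lower, a share of 45.5% that was under the 54.6% of all genes, with a median of 0.38 under their 0.50. The largest rises were in the Notch ligand Jag1 (1.61), the plasminogen activator Plat (1.52) and Notch1 (1.35). With rescaling 4 were higher (36.4%, beside 28.8% of all genes), with a median of 0.03. Of 4 lymphatic genes tested, 1 was higher (25.0%), Pdpn (3.26), which podocytes and fibroblasts also express.

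Activation and clotting genes were called higher in 10 of 11 (median 1.90), a share of 90.9% against 54.6% of all genes. The rises included the adhesion molecules Vcam1 (4.60) and Cd44 (3.71), and Esm1, a VEGF-responsive proteoglycan, was lower (-1.42). After rescaling 9 were higher and 1 lower (81.8% and 9.09%, beside 28.8% and 29.3% of all genes). Tubule, stromal or blood cells can also express many of these. Of 12 pericyte and smooth muscle genes, 8 were higher and 1 lower (66.7% and 8.33%, against 54.6% and 13.3% of all genes). Their median was 1.0. Rescaling left 5 higher and 3 lower (41.7% and 25.0%, against 28.8% and 29.3% of all genes), with a median of 0.51. The largest rises were in Tagln (1.97), Pdgfrb (1.68) and Mcam (1.36), and Kcnj8 was lower (-0.61). Of 9 podocyte genes 5 were higher (55.6%, near the share of all genes) and 0 lower. Rescaling left 3 of them higher (33.3%, beside 28.8% of all genes). Of 8 papilla and urothelium genes tested 0 were called in either direction. No gene of any list was called in CKD+Fe against CKD.

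**Figure D4:**
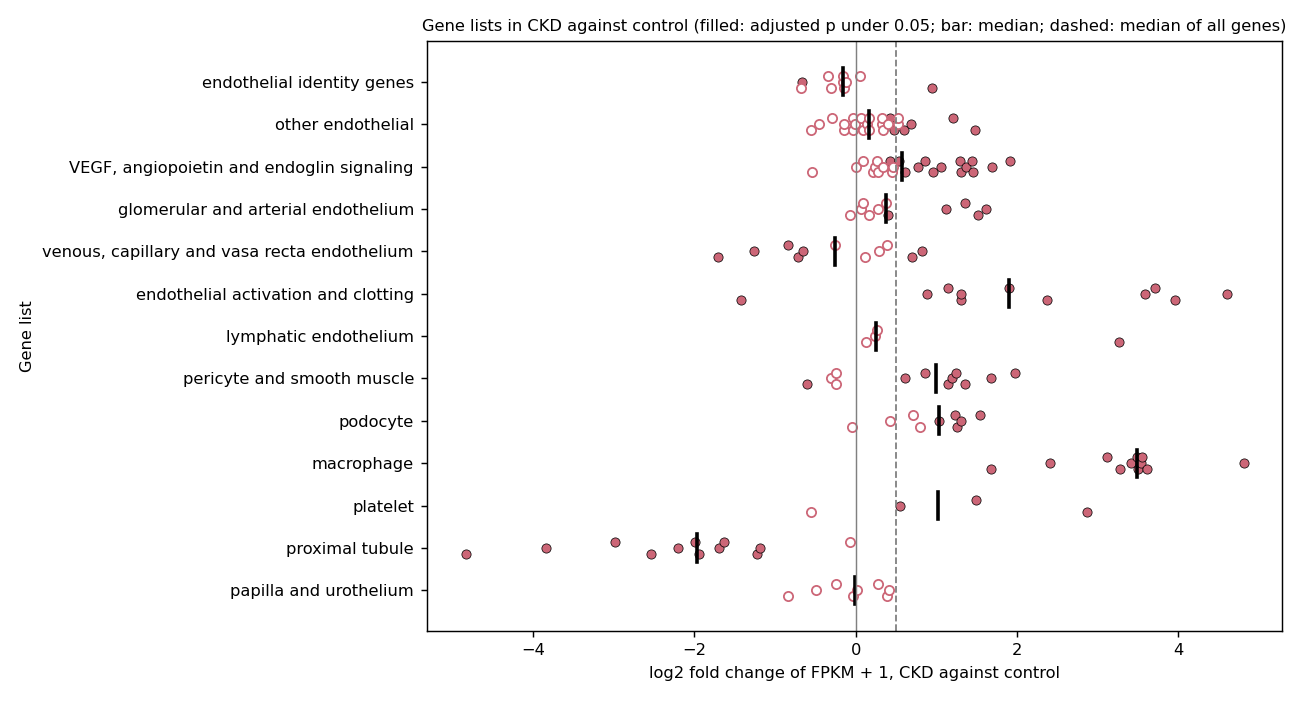
Log2 fold changes of FPKM + 1 in CKD against control (horizontal axis) for every tested gene of each list (rows), with filled points at adjusted p under 0.05, a black bar at the list's median, and a dashed line at the median of all genes, 0.50. The endothelial identity genes have their median at -0.16, with all macrophage genes and all activation genes but Esm1 to the right of the dashed line and proximal tubule genes to the left of 0.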

How the data were processed

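Stranded mRNA libraries from whole kidneys were sequenced as single-end 50-cycle reads on a HiSeq4000. Per the labels and the submitters' processing notes, the authors used bcl2fastq 2.19, STAR 2.5.2 and Cufflinks 2.1.1 on GRCm38 and deposited FPKM values per gene; the annotation release is not given in the sources used here. Depth, estimated from the steps between low values, was about 20600000 to 29500000 reads per mouse, an approximate figure. The table held 30 values marked as failed, which were treated as missing.

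From the deposited FPKM, log2(FPKM + 1) was fitted with limma 3.58.1 (R 4.3.3) with a variance trend over all 12 mice, for genes of at least 1 FPKM in at least 4 mice (13148), and adjusted by Benjamini-Hochberg (threshold 0.05). A fold change on this scale understates that of low genes. Exact two-sided permutation tests used 70 arrangements. The fit was tested on simulated data with independent noise in each gene. Those data held no mice that stand apart over many genes, so their outcome is no support for the calls here. Limma p-values set the difference between groups against the spread between mice within groups. Exact p-values count the arrangements with a difference at least as large. Named were all 10 genes, up to 3 called genes per direction and list, list genes called in CKD+Fe against CKD, and the 5 most alike genes; 1 gene under this rule is not reported here. The genes and lists were chosen with earlier results of these data known. Alternatives were another pseudocount, filter, scaling, weighting or threshold, and mice left out.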

Additional observations from a re-analysis of the deposited data

Results flagged for a closer look

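In 3 of 30 combinations of gene and group, the highest mouse was separated from the other 3 by more than Dixon's 95% limit for 4 samples, and chance alone flags about 1 in 20 such groups. Among controls, mouse 042301 held 110.3 FPKM of Emcn against 48.4 to 54.6 FPKM in the others (gap over range 0.9) and 198.1 FPKM of Plvap against 61.1 to 77.0 FPKM (0.884). Among CKD+Fe mice, 042702 held 51.2 FPKM of Eng against 25.8 to 28.2 FPKM (0.905). The same mice had low limma array weights, 0.3 for 042301 and 0.381 for 042702, as had CKD mouse 110310 at 0.201.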

How the results depend on the processing

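In CKD against control, 1 gene (Vwf) was higher and 1 (Kdr) lower. The number higher was 0 without a filter, with a mean of at least 5 FPKM (Vwf is then not tested), with median-of-ratios rescaling and with quantile normalization. The number lower was 8 with median-of-ratios rescaling, 5 with quantile normalization, 5 centred on other endothelial genes, 2 with array weights, 3 without the 3 mice standing apart, 9 and 6 when that omission was combined with rescaling or centring (both added after seeing the data), and 6 at an adjusted p under 0.5, the cutoff in the study's methods. Leaving out 1 mouse gave 0 to 1 higher and 1 to 2 lower. Of all 13148 genes, 1748 were lower as deposited, 3856 with rescaling, 3363 with quantile normalization, 2043 centred and 2192 with array weights. Without the 3 mice 2063 of all genes were lower, in the combinations 4469 and 2880, and with 1 mouse left out 1550 to 1876. Higher were 7181 of all genes as deposited, 3781 with rescaling and 3060 with quantile normalization, and 8210 of 18036 without a filter. In CKD+Fe against control, the number higher was 0 with a mean of at least 5 FPKM, rescaling or quantile normalization. The number lower, 0 as deposited, was 8 with rescaling, 4 with quantile normalization, 5 centred, 3 with array weights, 2 without the 3 mice, 7 and 6 in the combinations and 4 at an adjusted p under 0.5. Leaving out 1 mouse gave 0 to 1 higher and 0 to 1 lower. Of all 13148 genes, 1442 were lower as deposited, 3618 with rescaling, 2967 with quantile normalization, 2066 centred and 1981 with array weights. Without the 3 mice 1666 of all genes were lower, in the combinations 4144 and 3044, and with 1 mouse left out 1238 to 1542. Higher were 7159 of all genes as deposited, 3636 with rescaling and 2605 with quantile normalization. The count of all genes at an adjusted p under 0.5 is not given here.

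Kdr kept its direction and call in CKD against control under every alternative run. Over the 10 genes and all alternatives, 32 values became called and 8 lost the call in that comparison, and 36 and 5 did so in CKD+Fe against control, while no alternative called a gene in CKD+Fe against CKD. Directions turned in genes not called as deposited, and 1 turned value in CKD against control and 4 in CKD+Fe against control were themselves called lower: Cdh5 without the 3 mice and rescaled (adjusted p = 0.0282), and Pecam1 (rescaled, 0.0317; also without the 3 mice, 0.0296) and Tek (rescaled, 0.0277; quantile, 0.015). In CKD against control, Cdh5 was -0.47 (rescaled), -0.61 (quantile), -0.20 (centred) and -0.48 and -0.25 in the combinations with the 3 mice left out, and Flt1 and Tek were 0.060 and 0.013 with array weights and 0.056 and 0.070 without the 3 mice. Leaving out 1 mouse moved Pecam1 from -0.26 to 0.0068, Cdh5 from -0.12 to 0.23 and Eng from -0.38 to 0.0079.

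In CKD+Fe against CKD, centring gave -0.074 for Cdh5, -0.097 for Flt1 and -0.066 for Ehd3, and array weights gave -0.048, -0.15 and -0.063. Without the 3 mice Flt1 was -0.16 and Ehd3 -0.088, with rescaling added -0.11 and -0.035, and with centring added -0.26 and -0.18, beside -0.063 for Cdh5 and -0.069 for Tek. Leaving out 1 mouse moved Cdh5 from -0.13 to 0.20, Flt1 from -0.078 to 0.11, Ehd3 from -0.23 to 0.20, Plvap from -0.053 to 0.43, Vwf from -0.071 to 0.35 and Eng from -0.37 to 0.092.

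In CKD+Fe against control, Pecam1 was -0.50 (rescaled), -0.29 (quantile), -0.31 (centred) and -0.39 and -0.27 in the combinations, Cdh5 was -0.43, -0.55, -0.28, -0.39 and -0.31, Tek was -0.51, -0.59, -0.35, -0.41 and -0.32, and Emcn was 0.020 without the 3 mice. Leaving out 1 mouse moved Pecam1 from -0.054 to 0.21, Cdh5 from -0.084 to 0.27, Tek from -0.11 to 0.13 and Emcn from -0.26 to 0.14. The causes were not tested. No paired analysis was possible because the labels give the groups no shared replicate numbers. Depth limits Vwf most in control mice, and 4 mice per group limit every comparison.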
